A study of Gallus gallus with 38 samples.

Results

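The genes described here encode the nuclear subunits of the mitochondrial respiratory chain and of ATP synthase, and a few of the proteins that assemble them. They were chosen by name alone: each probe set whose single gene symbol began with *NDUF*, *UQCR*, *COX4* to *COX8* or *ATP5*, or was *SDHA*, *SDHB*, *SDHC* or *SDHD*. The rule found 61 probe sets of 59 genes, out of 11528 genes with a single symbol on the array. Where a gene had more than 1 probe set, the brightest over all arrays was used. Of the 59 genes, 53 encode subunits: 25 belong to complex I, 3 to complex II, 6 to complex III, 9 to complex IV and 10 to complex V. The other 6 are assembly factors, which help to build a complex and are not found in the finished enzyme. *SDHC* had no probe set with its symbol alone.

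The mucosa of the jejunum and of the cecum was scraped from 19 male Ross 308 broilers, a fast-growing meat chicken, at slaughter on day 42 (6 weeks of age). Feed did not differ between birds: each ate a commercial ration that changed with age. Each had also been given vaccines, against viral diseases (Gumboro, Newcastle, Marek's and infectious bronchitis) and against coccidia, so the labels give the tissue as the only difference between the groups. Each of the 38 samples was hybridised to its own Affymetrix Chicken Gene 1.0 ST array, and the numbers of the birds pair the 19 jejunum samples with the 19 cecum samples. Signals are on the log2 scale, where a difference of 1 is a 2-fold change, and differences are given throughout as jejunum minus cecum.

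Complex I takes electrons from NADH and complex II, the succinate dehydrogenase of the citric acid cycle, takes them from succinate. They pass through ubiquinone to complex III, then through cytochrome c to complex IV, which reduces oxygen to water. Complexes I, III and IV pump protons across the inner mitochondrial membrane, complex II does not, and complex V uses the proton gradient to make ATP. Absorbing enterocytes of the small intestine and the epithelium of the hindgut both spend much ATP on transport, and butyrate made by bacteria is a well known fuel of hindgut epithelium.

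Array medians lay between 5.57 and 5.75 and single signals between 0.85 and 13.8; the number of arrays limits the precision. The cecal array of bird 3 stood apart from the other cecal arrays, with a mean correlation of 0.919 with them, and the jejunal array of bird 19 was the lowest of its tissue at 0.949. The signals of tissue markers followed the labels. The mean of 16 small intestinal enterocyte genes was 8.82 to 11.0 in the jejunum and 4.29 to 6.62 in the cecum. The mean of 10 cecal surface genes was 4.15 to 6.44 in the jejunum and 8.36 to 10.2 in the cecum. Most genes of both lists are among the largest differences that the study reported from these same arrays. They are therefore no independent check of the labels. A free-text label names the samples as mucosa of the acid-secreting stomach. Yet the mean of 7 gastric gland genes was low throughout, 3.13 to 3.70 in the jejunum and 3.20 to 4.16 in the cecum. None of these genes passed the test between the tissues, but that test cannot bear on a label that all samples share.

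No respiratory chain gene was a differentially expressed transcript (DET), that is, none of the 59 had both a fold change ratio (FCR) of at least 2 and an adjusted p under 0.05, while 7.30% of all 18308 probe sets did. At a smaller fold the genes leaned to the cecum. With an adjusted p under 0.05 at any fold, 30 of the 59 (50.8%) were higher in the cecum, 3 (5.08%) were higher in the jejunum and 26 passed in neither direction. Over all probe sets the shares were 25.1% for the cecum and 20.1% for the jejunum. Over all genes with a single symbol, with 1 probe set each as here, they were 29.1% and 22.0%. The median difference was -0.23 over the 53 subunits, 0.02 over the 6 assembly factors and -0.04 over all genes. The mean was higher in the cecum for 47 of 53 subunits (88.7%) and for 55.8% of all genes. In a bulk sample, more cells of a type and more RNA per cell cannot be told apart.

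Many of the genes are bright, so they were also set beside genes of similar signal. Among genes with a mean signal of at least 8, the shares of 1490 were 37.4% for the cecum and 27.1% for the jejunum, with a median difference of -0.08. Of the 35 respiratory chain genes above that signal, 20 (57.1%) were higher in the cecum, 1 (2.86%) was higher in the jejunum, and the median difference was -0.29.

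**Figure D1:**
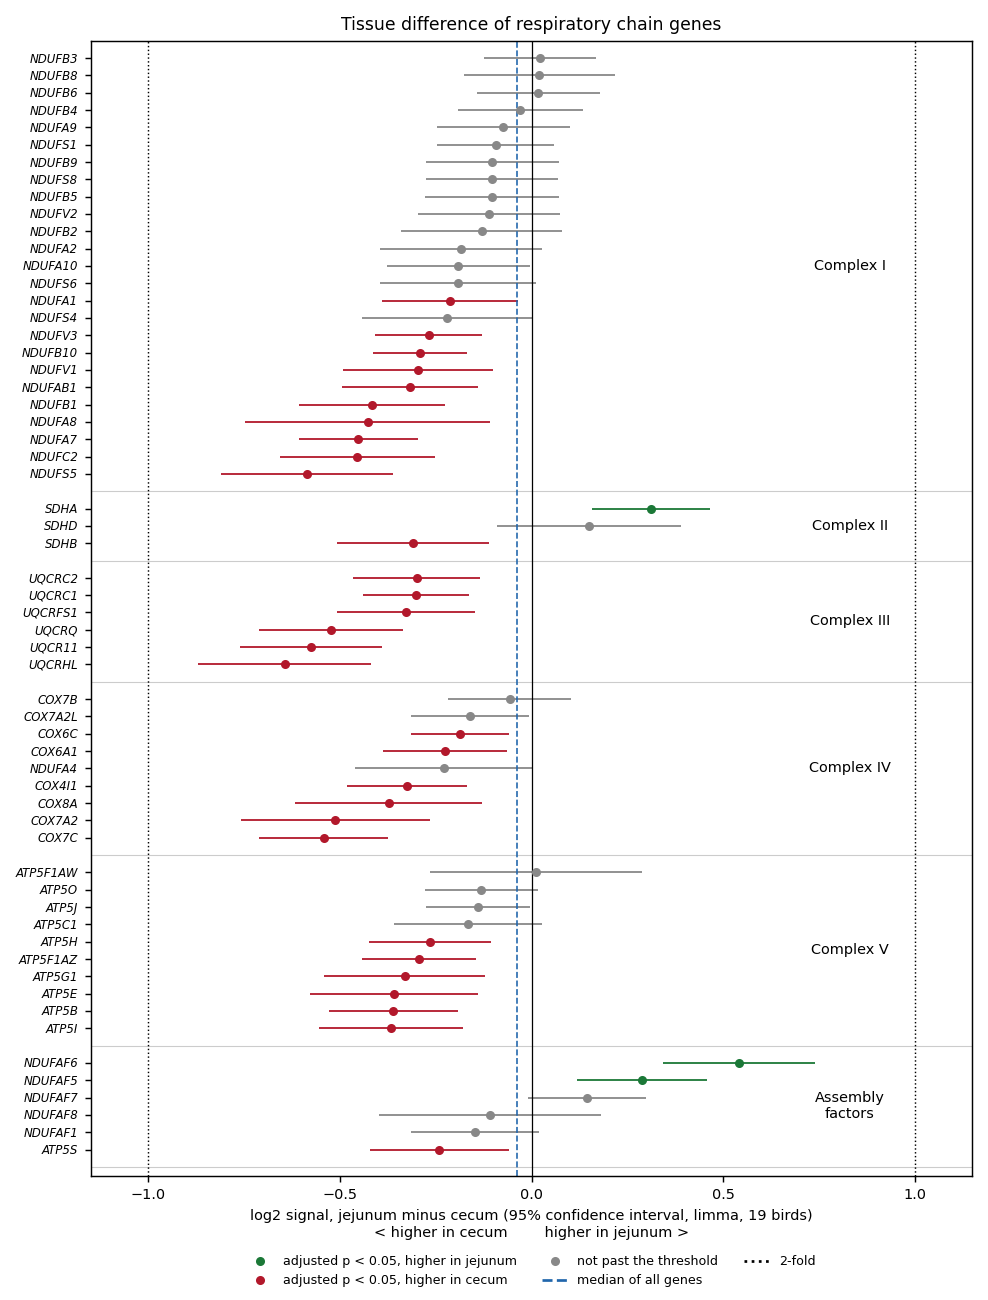
Difference in log2 signal between jejunum and cecum for the 59 genes, by complex, with 95% confidence intervals from limma over 19 birds in each tissue. Points left of 0 are higher in the cecum; the 6 genes of complex III lie between -0.64 and -0.30, *SDHA* and *SDHB* lie on opposite sides of 0, and no point reaches the dotted 2-fold lines.

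Complex III was the complex in which every measured subunit passed the test, all 6 higher in the cecum, with a median difference of -0.43. Of all genes 29.1% were called for the cecum, and of those with a mean signal of at least 8, 37.4%. The largest difference of all 59 genes was that of the probe set named *UQCRHL*, after the hinge protein that holds cytochrome c against complex III. Its log2 signal had a minimum, median and maximum of 7.08, 8.40 and 9.09 in the jejunum and 8.53, 8.97 and 9.46 in the cecum. The ranges overlapped, but the cecum was higher in 17 of 19 birds. The means were 8.34 ± 0.41 and 8.99 ± 0.28 (SD, n = 19), which differ by -0.64 ± 0.11 (SE), and the FCR was 1.56 (limma, adjusted p = 5.48e-06). *UQCR11*, the smallest subunit of the complex, had 7.73, 8.49 and 8.90 in the jejunum and 8.68, 8.99 and 9.54 in the cecum. Only the lower part of the cecal range overlapped with the jejunum, and the FCR was 1.49 (adjusted p = 1.19e-06).

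*UQCRQ*, another small membrane subunit, was higher in the cecum in 18 of 19 birds (FCR 1.44, adjusted p = 8.98e-06). The Rieske iron-sulfur protein *UQCRFS1*, which passes electrons on to cytochrome c1, ranged from 7.46 to 8.81 in the jejunum and from 8.12 to 8.97 in the cecum, with a difference of -0.33 (adjusted p = 0.00234). The large core proteins *UQCRC1* and *UQCRC2*, which hold no redox centre, differed by -0.30 each, with the cecum higher in 17 and 15 birds. The 3 small subunits thus differed by -0.64 to -0.52 and the 3 larger proteins by -0.33 to -0.30, a split that was noticed after the values were seen and was not tested.

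The subunits of complex II did not all lean the same way. The flavoprotein *SDHA*, which oxidises succinate, was higher in the jejunum, while its iron-sulfur partner *SDHB* was higher in the cecum. *SDHA* had a minimum, median and maximum of 8.20, 8.86 and 9.30 in the jejunum and 7.94, 8.60 and 8.84 in the cecum, and was higher in the jejunum in 16 of 19 birds. It differed by 0.31 ± 0.08 (SE), or 1.24 as FCR (adjusted p = 0.000755). *SDHB* had 8.19, 8.99 and 9.29 in the jejunum and 8.36, 9.25 and 9.62 in the cecum, and was higher in the cecum in 17 birds. Its difference was -0.31 ± 0.10, an FCR of 1.24 the other way (adjusted p = 0.00881). The ranges of both genes overlapped between the tissues.

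*SDHD*, a membrane anchor of the complex, ranged from 7.47 to 9.11 in the jejunum and from 7.64 to 9.06 in the cecum. Its difference of 0.15 did not pass the test, and the 95% interval ran from -0.09 to 0.39 (adjusted p = 0.331). The contrast between *SDHA* and *SDHB*, chosen after their values were seen, was present in each bird: the tissue difference of *SDHA* exceeded that of *SDHB* in 19 of 19 birds, by 0.62 ± 0.23 (SD). Since the genes were picked for this contrast, it is a description with no test. *SDHA* was the only subunit among the 53 that passed the threshold on the jejunal side.

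**Figure D2:**
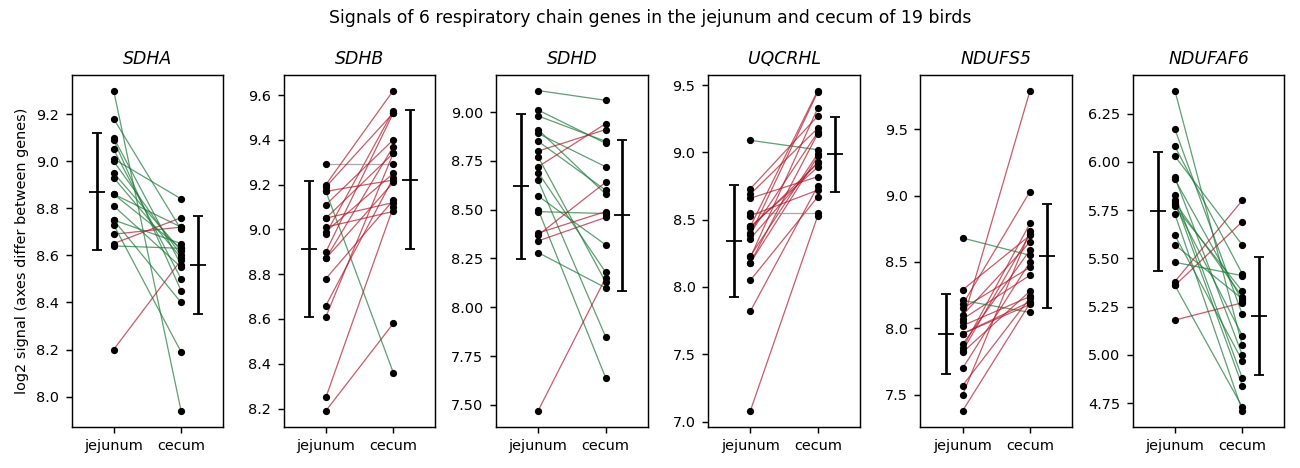
Log2 signal of *SDHA*, *SDHB*, *SDHD*, *UQCRHL*, *NDUFS5* and *NDUFAF6* in the jejunum and cecum of 19 birds; each point is 1 array, lines join the tissues of a bird (red, higher in the cecum; green, higher in the jejunum; grey, equal) and the bars at the sides are mean ± SD. Each panel has its own axis. *SDHA* fell from jejunum to cecum in 16 birds and *SDHB* rose in 17.

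Complex I, the largest of the chain, showed the smallest shift of the complexes that leaned to the cecum. Of its 25 measured subunits 10 were higher in the cecum, none was higher in the jejunum and 15 passed in neither direction, with a median difference of -0.19. The core subunits, which carry the flavin and iron-sulfur centres and are conserved from bacteria, gave 1 call in 4. That is close to the shares for the cecum of 25.1% over all probe sets and 29.1% over all genes. The accessory subunits gave 9 in 21, and the classes were not tested against each other. The core call was *NDUFV1*, which binds NADH, at 7.59 ± 0.34 in the jejunum and 7.88 ± 0.26 in the cecum (SD, n = 19), a difference of -0.30 (adjusted p = 0.0107). *NDUFS1*, an iron-sulfur subunit, differed by -0.09 (95% interval -0.25 to 0.06), *NDUFS8* by -0.10 and *NDUFV2* by -0.11. A second, dim probe set of *NDUFV2*, with means of 2.43 and 2.21, pointed the other way at 0.21 (adjusted p = 0.0675), and neither probe set passed.

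The accessory subunits surround the core and help in its assembly and stability. *NDUFS5* had the largest difference of complex I, with a minimum, median and maximum of 7.38, 7.96 and 8.68 in the jejunum and 8.12, 8.50 and 9.79 in the cecum. The highest cecal value was that of bird 3, whose array stood apart, and the next was 9.03. The cecum was higher in 17 of 19 birds, with an FCR of 1.50 (adjusted p = 2.41e-05). *NDUFA7* was lower in the jejunum in all 19 birds, the only one of the 59 genes with a difference in the same direction in each bird. It ranged from 6.36 to 7.28 in the jejunum and from 6.90 to 7.87 in the cecum, and differed by -0.45 ± 0.08 (SE), which is an FCR of 1.37 (adjusted p = 4.25e-06).

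*NDUFC2*, in the membrane arm, was higher in the cecum in 17 birds, with a difference of -0.45 ± 0.10 (adjusted p = 0.000203). *NDUFA8* was higher in the cecum in 17 birds as well, but with wide ranges of 5.56 to 7.75 in the jejunum and 6.33 to 8.04 in the cecum. Its difference of -0.43 ± 0.16 passed in the main fit (adjusted p = 0.0245) and with the bird as a block (adjusted p = 0.000408). With arrays weighted by quality it was -0.27 and did not pass (adjusted p = 0.159). With arrays centred on their medians it was -0.38 and did not pass either (adjusted p = 0.0565). The other called accessory subunits were *NDUFB1*, *NDUFAB1* (the mitochondrial acyl carrier protein), *NDUFB10*, *NDUFV3* and *NDUFA1*, with differences from -0.42 to -0.21. The call of *NDUFA1* was lost in 14 of the 19 fits that left out 1 bird, which had no bird term. It was kept with the bird as a block (adjusted p = 0.0158).

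Within the membrane arm the subunits of the *NDUFB* family were not alike in their values. *NDUFB1* differed by -0.42 and *NDUFB10* by -0.29, whereas *NDUFB3*, *NDUFB6* and *NDUFB8* each differed by 0.02 and were higher in the cecum in 9, 8 and 10 birds. The interval of *NDUFB3* ran from -0.12 to 0.17. *NDUFS4*, an accessory subunit near the NADH-binding end, differed by -0.22 with an adjusted p of 0.103, which became 0.0452 when the bird was a block.

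Complex IV was higher in the cecum in 6 of its 9 measured subunits, with none higher in the jejunum and a median difference of -0.23. Beside this, 29.1% of all genes and 37.4% of those with a mean signal of at least 8 were called for the cecum. The measured subunits of complex IV are nuclear ones that surround the catalytic core encoded by mitochondrial DNA. *COX7C* had the lowest adjusted p of the 59 genes. It had a minimum, median and maximum of 8.87, 9.30 and 9.84 in the jejunum and 9.42, 9.87 and 10.29 in the cecum, and was higher in the cecum in 18 of 19 birds. The means were 9.33 ± 0.27 and 9.87 ± 0.24 (SD, n = 19), with an FCR of 1.46 (adjusted p = 6.18e-07). *COX7A2*, the form of subunit VIIa found in most tissues, ranged from 8.25 to 9.76 in the jejunum and from 8.85 to 10.27 in the cecum, with the cecum higher in 18 birds and an FCR of 1.43 (adjusted p = 0.000565).

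*COX8A* differed by -0.37 (adjusted p = 0.00974) and *COX4I1*, the general form of subunit IV, by -0.32 with the cecum higher in 18 birds (adjusted p = 0.000555). *COX6A1* and *COX6C* were also called, at -0.23 and -0.19. *COX7B*, *COX7A2L*, which links complexes III and IV into supercomplexes in mammals, and *NDUFA4*, first assigned to complex I and later found in complex IV, did not pass, at -0.06, -0.16 and -0.23. *NDUFA4* passed with array weights, and without birds 3 and 19 (-0.27, adjusted p = 0.044 in that fit). *COX7A2L* passed with quantile normalization, with array weights, without bird 3 and without birds 3 and 19. No tissue-specific isoform partner, such as *COX4I2*, *COX6A2* or *COX7A1*, had a probe set under the rule, so isoforms could not be compared.

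Complex V was higher in the cecum in 6 of its 10 measured subunits and in the jejunum in none, with a median difference of -0.28. The shares called for the cecum were 29.1% of all genes and 37.4% of those with a mean signal of at least 8. In the catalytic head, where ATP is formed, the beta subunit *ATP5B* had a minimum, median and maximum of 9.92, 10.69 and 11.04 in the jejunum and 10.61, 11.05 and 11.31 in the cecum. It differed by -0.36 ± 0.08 (SE), with the cecum higher in 15 of 19 birds (adjusted p = 0.000362), and its second probe set gave -0.43 (adjusted p = 6.90e-06). The epsilon subunit *ATP5E* of the central stalk differed by -0.36 (adjusted p = 0.00600), and the gamma subunit *ATP5C1*, the rotating shaft, by -0.17. *ATP5C1* had an adjusted p of 0.162, or of 0.0494 with the bird as a block.

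The alpha subunit has gene copies on the sex chromosomes of the chicken. The copy named *ATP5F1AZ* was higher in the cecum in 18 of 19 birds, at 9.44 ± 0.25 in the jejunum and 9.73 ± 0.18 in the cecum (SD, n = 19; adjusted p = 0.000960). The copy named *ATP5F1AW*, after the W chromosome that only hens carry, was at 4.97 ± 0.35 and 4.96 ± 0.51 in these birds, which are labelled male. By that name and label the birds lack this copy, so its signal cannot be read as its expression. It stays in the counts of complex V and of all subunits because members were chosen by name. Its difference was 0.01 (adjusted p = 0.961). It did not follow *ATP5F1AZ* over birds, with r of -0.01 in the jejunum and -0.31 in the cecum, given as descriptions. Its SD in the cecum was 0.299 without bird 3, whose value of 6.70 was followed by 5.41.

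In the membrane part, the c-ring subunit *ATP5G1*, which carries protons as the rotor turns, ranged from 7.40 to 8.89 in the jejunum and from 8.00 to 8.98 in the cecum, with a difference of -0.33 (adjusted p = 0.00802). *ATP5I*, the e subunit at the place where synthases pair, differed by -0.37 with the cecum higher in 17 birds (adjusted p = 0.00108). Of the peripheral stalk, which keeps the head from turning, *ATP5H* was called at -0.26 and *ATP5J* and *ATP5O* were not, at -0.14 and -0.13.

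The assembly factors held the other 2 genes that were higher in the jejunum, both for complex I. *NDUFAF6*, needed early in assembly in humans, had a minimum, median and maximum of 5.18, 5.78 and 6.37 in the jejunum and 4.71, 5.27 and 5.80 in the cecum. The jejunum was higher in 16 of 19 birds, and the tissues differed by 0.54 ± 0.10 (SE), or 1.46 as FCR (adjusted p = 1.26e-05). *NDUFAF5*, which hydroxylates a core subunit, ranged from 5.50 to 6.43 in the jejunum and from 5.02 to 6.10 in the cecum, with a difference of 0.29 (adjusted p = 0.00443). Its ranges overlapped and the jejunum was higher in 15 birds. *NDUFAF7*, a methyltransferase acting on a core subunit, differed by 0.14, *NDUFAF1* by -0.15 and *NDUFAF8* by -0.11, and none of these passed. *ATP5S*, an old name of *DMAC2L*, which is not part of the finished synthase, was higher in the cecum at -0.24 (adjusted p = 0.0255), a call that was lost without bird 5 or bird 19.

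A wider list of complex I assembly genes outside the name rule was also divided. Of 8 measured, 3 were called for the jejunum and 3 for the cecum, with a median difference of -0.01. Over all genes the shares called were 22.0% for the jejunum and 29.1% for the cecum. *FOXRED1*, an oxidoreductase of assembly, was higher in the jejunum in all 19 birds (difference 0.73, adjusted p = 8.53e-08), and *ACAD9*, which also oxidises fatty acids, in 18 (0.66, adjusted p = 3.69e-09). *NUBPL*, which delivers iron-sulfur clusters, was higher in the cecum in all 19 birds (-0.80, adjusted p = 5.60e-09). These examples were picked after their values were seen. Of the complex IV assembly genes 3 of 17 were called for the jejunum and 8 for the cecum. All 3 measured for complex V were higher in the cecum, and none of 5 for complexes II and III passed. *TMEM70* is in the lists of both complex I and complex V, so it is among the cecal calls of each.

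The lean to the cecum was seen in most birds but not in all. Within a bird, the cecum was higher for 14 to 51 of the 53 subunits, with a median of 42, while 49.3% to 55.6% of all genes were higher in the cecum. The median difference over the subunits was below 0 in 17 of 19 birds and ran from -0.62 in bird 19 to 0.11 in bird 10, while that over all genes ran from -0.09 to 0.00. Bird 10, with 38 subunits higher in the jejunum, and bird 18, with 28, were the exceptions. By complex, the median was below 0 in 18 birds for complex III and in 17 each for complexes I, IV and V. For complex II it was above 0 in 13 birds, with the widest range of the complexes, from -0.68 in bird 5 to 0.81 in bird 3. That median is over 3 subunits, against 6 to 25 for the other complexes, and the cecal array of bird 3 stood apart.

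**Figure D3:**
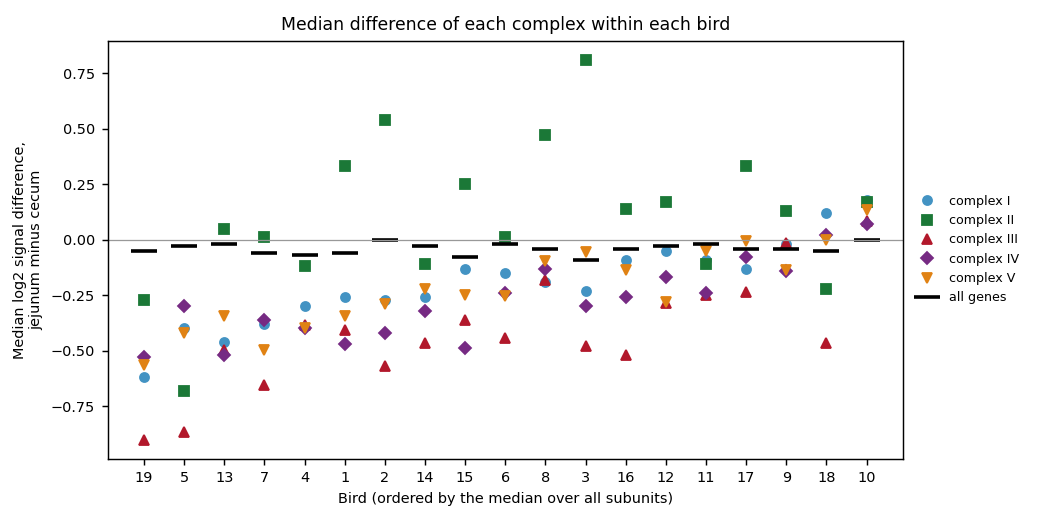
Median log2 difference (jejunum minus cecum) of the subunits of each complex within each of 19 birds, ordered by the median over all 53 subunits, with the median over all genes as a black bar. Complex III lies below 0 in 18 birds and complex II above 0 in 13.

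The signals varied more between birds in the jejunum than in the cecum. The SD over birds was larger in the jejunum for 41 of 59 genes (69.5%), and for 45.2% of all genes. The median SD was 0.302 in the jejunum and 0.243 in the cecum for these genes, and 0.266 and 0.290 for all genes. Among genes with a mean signal of at least 8, the jejunal SD was larger for 26 of the 35 respiratory chain genes and for 52.0% of all. The assembly factors went the other way, with a larger jejunal SD in 1 of 6, and all 6 subunits of complex III had the larger SD in the jejunum. Over the alternatives the count for the 59 genes ran from 39 to 50, and it was 50 without birds 3 and 19. No test was run on these counts.

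*NDUFA8* had the largest SD in the jejunum, 0.58, followed by *NDUFA4* at 0.44 and *NDUFS4* at 0.42. In the cecum the largest were *NDUFAF8* at 0.54, *ATP5F1AW* at 0.51 and *NDUFA8* at 0.44. The cecal value of *NDUFAF8* in bird 3 was 7.61 and the next was 6.65, and without that bird its SD was 0.389. *NDUFA8* kept a cecal SD of 0.453 without bird 3.

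**Figure D4:**
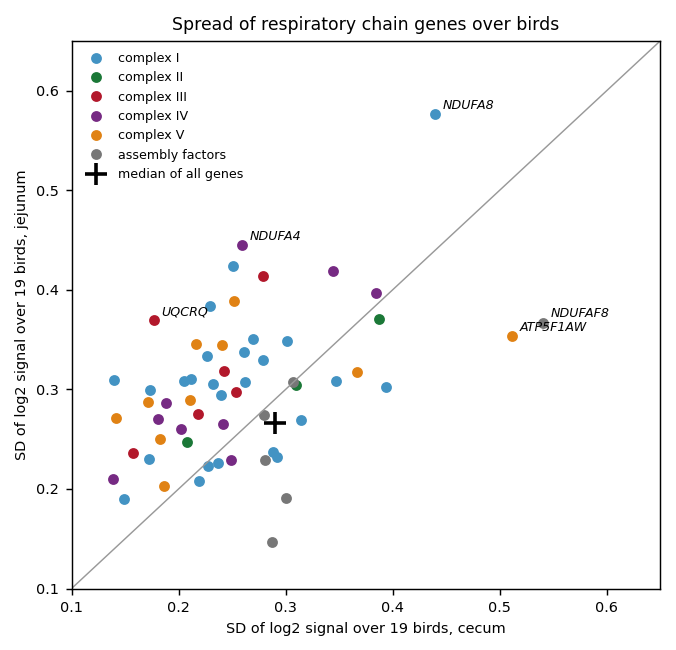
SD of the log2 signal over 19 birds in the cecum (x axis) and the jejunum (y axis) for the 59 genes, coloured by complex, with the median of all genes as a cross and a line of equal SD. Of the 59 points, 41 lie above the line, and 5 of the 6 assembly factors lie below it.

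In the jejunum single birds were high or low for many subunits together. Bird 5 had the lowest jejunal value of 26 of the 53 subunits, with a mean deviation from the jejunal mean of -0.43. Bird 12 had the highest value of 23, with a mean deviation of 0.38. The same birds were at -0.18 and 0.25 in the cecum, where bird 12 was the highest for 16 subunits and the array of bird 3 was the lowest for 14 and the highest for 8. *NDUFA4* ran against this, since bird 5 had its highest value in both tissues, 10.23 and 9.95. The jejunal array of bird 5 had the highest median of the 38 arrays, 5.75. Its mean correlation with its tissue was 0.958 and its quality weight 0.493, where jejunal weights ran from 0.383 to 1.60. The jejunal array of bird 12 had a mean correlation of 0.97 and a weight of 0.678. Whether the birds or their arrays gave these values was not tested.

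The subunits varied together over birds, with higher correlations in the jejunum. Among 1378 pairs of subunits the median Pearson's r over 19 birds was 0.482 in the jejunum, with 91.5% of pairs above 0, and 0.235 in the cecum, with 71.3% above 0. The medians over pairs of all genes were -0.004 and -0.0015. All pairs share the same arrays, so these values are descriptions with no test. Within complexes the jejunal medians were 0.489 for complex I, 0.729 for II, 0.550 for III, 0.405 for IV and 0.391 for V, and the cecal medians were 0.154, 0.802, 0.368, 0.307 and 0.295. *SDHA*, *SDHB* and *SDHD* thus followed each other over birds within each tissue although *SDHA* and *SDHB* differed in opposite directions between the tissues. The cecal value of complex II was 0.624 without birds 3 and 19 and 0.449 by Spearman's rho.

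*COX4I1* had the highest median r with the other subunits in the jejunum, 0.642, and *NDUFA4* the lowest, 0.0136. *ATP5B* was low in both tissues, at 0.0729 and 0.0734. The assembly factors were divided in the jejunum. *NDUFAF5* and *NDUFAF6*, which were higher in the jejunum, had median values with the subunits of -0.415 and -0.386 there and of 0.137 and 0.306 in the cecum. In the jejunum both genes were lowest in bird 12, which had the highest value of 23 subunits. Both were highest in bird 4, whose subunits had a mean deviation of -0.193. No value of these medians without such birds is given. *NDUFAF7* was at -0.222 in the jejunum, *NDUFAF8* at 0.121, *NDUFAF1* at 0.192 and *ATP5S* at 0.465, the last near the median of the subunits. Over all pairs of a subunit with an assembly factor the median r was -0.0899 in the jejunum and 0.151 in the cecum.

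**Figure D5:**
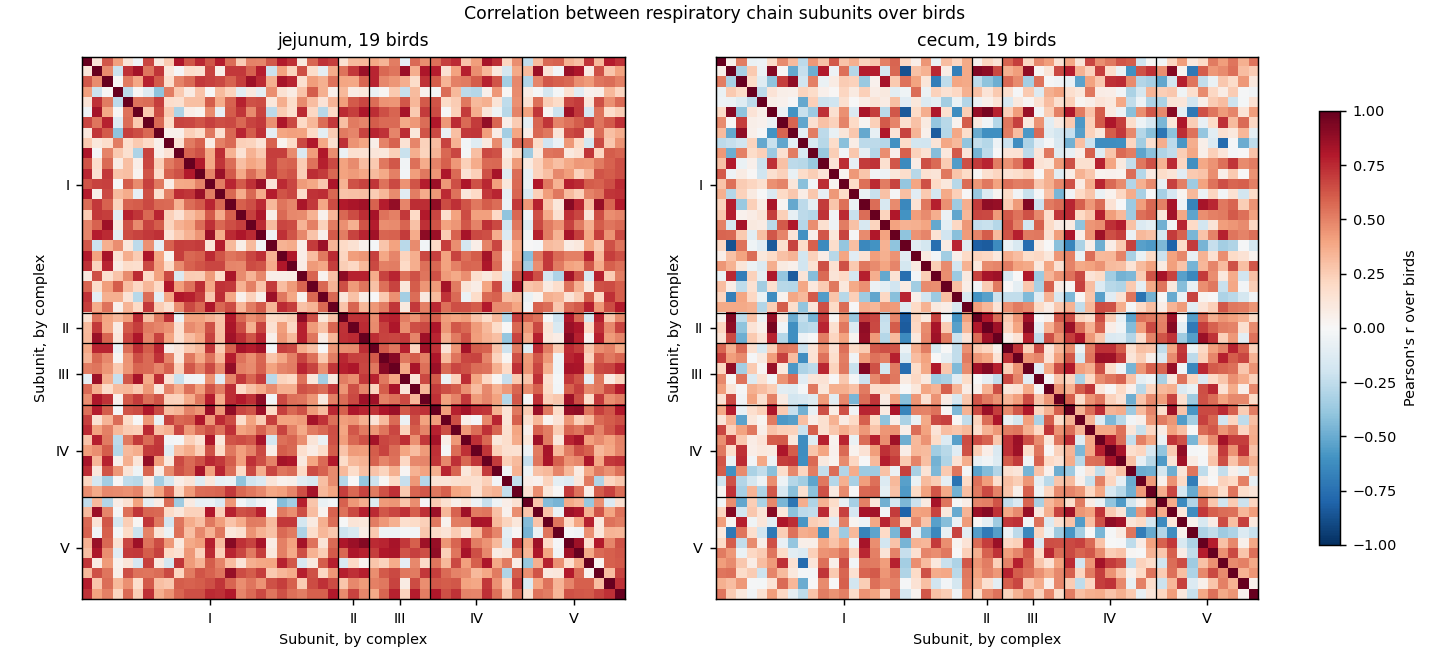
Pearson's r over 19 birds between each pair of the 53 subunits in the jejunum and the cecum, ordered by complex, with black lines between complexes; red is above 0 and blue below. The median is 0.482 in the jejunum and 0.235 in the cecum.

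Whether a bird high in a gene in the jejunum was also high in the cecum was tested for every probe set with 100000 permutations. None of the 59 genes passed after adjustment over all probe sets, of which 0.104% passed. The median r was 0.22 over these genes and 0.11 over all genes. The highest was that of *NDUFA8* with r = 0.71 and rho = 0.69 (two-sided permutation p = 0.00057 for r, adjusted p = 0.135), and r was 0.59 without the 2 birds farthest from the jejunal median. *COX4I1* followed at 0.63 and *ATP5C1* at 0.62, with adjusted permutation p of 0.235 and 0.265. The lowest were *ATP5F1AW* at -0.48 and *SDHA* at -0.27, the latter 0.06 without 2 birds. The mean level of the 53 subunits had r = 0.464 and rho = 0.412 between the tissues, and r was 0.0573 without the 2 farthest birds. This relation was not tested.

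Other mitochondrial gene lists were counted in the same fit, in which 29.1% of all genes were called for the cecum and 22.0% for the jejunum. The mitochondrial ribosome leaned as the subunits did, with 30 of 58 genes higher in the cecum, 1 in the jejunum and a median of -0.22. Protein import had 11 of 21 on the cecal side and none on the other, with a median of -0.21. The citric acid cycle with pyruvate entry had 7 of 15 and none, with a median of -0.18. Its list also held the cytosolic enzymes *ACO1*, which is among the 7, and *IDH1*, which is not. The list of electron carriers had 2 of 14 on the cecal side and 3 on the jejunal side. Most of the 14 serve ubiquinone, and cytochrome c itself was not among them. Among oxidant defence and uncoupling genes 3 of 9 were called for the cecum and 1 for the jejunum. They held the only DET of these lists, *AOX1*, an aldehyde oxidase of the cytosol, higher in the cecum with an FCR of 2.99 (adjusted p = 2.92e-17).

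Of the subunits encoded by mitochondrial DNA only *COX3*, *ND4L* and *ND6* had a probe set. *ND6* was higher in the cecum at -0.43 (adjusted p = 0.0230), and *COX3* and *ND4L* differed by 0.01 and -0.02, with signals near the top of the array's range. Among regulators of mitochondrial biogenesis 6 of 15 were called for the cecum and 2 for the jejunum, beside 29.1% and 22.0% of all genes. *PPARGC1A*, the coactivator best known for inducing respiratory genes, was higher in the jejunum at 0.50 (adjusted p = 0.00668), while the related *PPRC1* was higher in the cecum at -0.64 (adjusted p = 0.000125). Of the other regulators, *GABPA* and *NRF1* were called for the cecum at -0.35 and -0.16, and *POLG2* for the jejunum at 0.54. *PPARGC1B* did not pass, at -0.02. All of these were picked after their values were seen.

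A list of genes that fold the inner membrane or fuse and divide whole mitochondria was split. Of its 22 genes 7 were called for the jejunum and 8 for the cecum, beside 22.0% and 29.1% of all genes. The jejunal calls included *MFN2*, *MFF*, *MIEF2* and *DNM1L*, of fusion and division, so the split is not one of inner membrane genes alone. Fusion and division genes did not all go that way. *MIEF1* was called for the cecum at -0.32 (adjusted p = 0.00484), and *MFN1* did not pass, at -0.13 (adjusted p = 0.0661). *MFN2*, which fuses mitochondria, was higher in the jejunum in 18 birds (0.68, adjusted p = 2.91e-09). *CHCHD3*, *CHCHD6*, *IMMT* and *MINOS1*, of the complex that forms crista junctions, were higher in the cecum, at -0.52, -0.49, -0.41 and -0.55. Of the same complex, *APOOL* was higher in the jejunum at 0.31 (adjusted p = 0.0112), and *C19orf70* and *APOO* did not pass, at 0.14 and -0.01. These genes too were picked after their values were seen.

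The tissues differed in markers of other cells, whose part in the results was not tested. Over all probe sets 3.62% were DETs for the cecum and 3.68% for the jejunum. Of 12 genes of proliferating cells 11 were DETs higher in the cecum, and their mean was 5.24 to 7.73 in the jejunum and 7.16 to 8.15 in the cecum. Of 8 smooth muscle genes 6 were DETs higher in the cecum, with means of 5.46 to 8.44 and 7.42 to 8.97, and of 7 fibroblast genes 4 were. Of 8 genes of proton-pumping, mitochondria-rich cells 6 were DETs higher in the cecum, with means of 4.30 to 5.23 and 5.83 to 7.01. In the jejunum 4 of 11 T cell genes and 3 of 6 goblet cell genes were DETs.

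The mean subunit level was set beside 26 lists within each tissue, 52 relations over 19 birds that are descriptions and of which some are given. In the cecum it was lower in birds with more proliferating cell marker signal, with r = -0.65, rho = -0.58 and r = -0.61 without the 2 farthest birds, and was lower with more fibroblast signal at r = -0.59 and rho = -0.67, and r = -0.44 without 2 birds. Macrophage markers gave r = -0.56, rho = -0.62 and r = -0.44 without 2 birds. The cecal surface markers gave r = 0.61, rho = 0.53 and r = 0.39 without 2 birds, and the enterocyte markers, low in the cecum, r = 0.61, rho = 0.38 and r = 0.43. In the jejunum the proliferating markers gave r = 0.11, the goblet cell markers r = 0.68 and rho = 0.47, and the enterocyte markers r = 0.44, which was -0.09 without 2 birds. The mitochondrial ribosome gave a jejunal r of 0.84 and a cecal r of 0.57, or 0.68 and 0.31 without 2 birds. The highest cecal values were those of 2 other lists. The electron carriers gave r = 0.76, rho = 0.81 and r = 0.76 without 2 birds. Oxidant defence and uncoupling genes, a list that also holds the cytosolic *AOX1*, gave r = 0.72, rho = 0.86 and r = 0.80. Regulators of mitochondrial biogenesis gave a jejunal r of -0.43 and a cecal r of -0.615, or -0.306 and -0.455 without 2 birds. The median of the array, a property of the hybridisation and scaling, gave r = -0.33 and -0.50, and 0.07 and -0.55 without 2 birds.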

How the data were processed

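Total RNA was extracted from 38 mucosa samples and analysed on Affymetrix Chicken Gene 1.0 ST arrays, with biotin labelling. The authors processed the scans with the Transcriptome Analysis Console (version 4.0.1.36) and deposited log2 signals with 2 decimals for 18308 probe sets; the settings of background correction and normalization are not stated in the sources used here, and no scanner files were used. Of the probe sets, 12300 had a single gene symbol in the platform annotation. Of the 59 members, 58 carried the same symbol in the current RefSeq gene table. Coordinates and sequences are not used here.

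Jejunum and cecum were compared over all probe sets by a moderated linear model (limma 3.58.1, R 4.3.3) that had tissue as its sole term, a choice made here because the study's methods give the thresholds but no model terms, with Benjamini-Hochberg adjustment over the 18308. A DET had an FCR of at least 2 and an adjusted p under 0.05. Correlations and permutations were run in Python 3.11.15 (numpy 2.4.6, scipy 1.17.1, pandas 2.3.3) and drawn with matplotlib 3.10.9. The fit was tested on simulated data first.

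The birds are paired because the study took both tissues from the same animals, although a label counts each sample as a bird. Deviations from the tissue means of the same bird correlated at a mean of 0.114 (-0.133 to 0.411, above 0 in 14 of 19 birds), against -0.006 for other birds.

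Genes were named by a rule: the members with the largest called differences of each complex (up to 4 a side), all succinate dehydrogenase subunits, isoform pairs, the 3 members with the largest SD in each tissue, those with the highest and lowest correlation between tissues, members with discordant probe sets, and DETs of the other lists. The remaining named genes were chosen after their values were seen. The members and lists were chosen with earlier results of these data known. The alternatives were the bird as a block, quantile normalization, median centring, a filter on dim probe sets, array weights, no moderation, leaving out birds, averaging the probe sets that share a gene, the interquartile range and Spearman's rho.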

Additional observations from a re-analysis of the deposited data

How the results depend on the processing

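No gene was a DET under any alternative tried. The number higher in the cecum at any fold ran from 25 with arrays centred on their medians to 34 with quantile normalization, and was 32 with the bird as a replicate block, 32 with array weights and 28 to 31 with 1 bird left out; the number higher in the jejunum was 3, or 4 with centring, and the 3 were the same genes throughout. All 30 cecal calls were kept with the block, which added *ATP5C1* and *NDUFS4* and changed no other call, and 25 of 30 were kept with centring, which lost *ATP5S*, *COX6A1*, *COX6C*, *NDUFA1* and *NDUFA8* and moved the median over all probe sets from -0.03 to 0.02. With 1 bird left out, the median differences ran from -0.22 to -0.15 for complex I, 0.11 to 0.20 for II, -0.46 to -0.41 for III, -0.26 to -0.21 for IV and -0.30 to -0.24 for V. The median correlation within complex II was 0.696 by Spearman's rho, 0.655 with quantile normalization and 0.754 without birds 3 and 19 in the jejunum, and 0.449, 0.619 and 0.624 in the cecum. The 3 signs that turned rested on no call: *ATP5F1AW* ran from -0.06 to 0.13 with 1 bird left out, *NDUFV2* was 0.0513 (adjusted p = 0.582) as the mean of its probe sets, and the correlation of *SDHA* between tissues was 0.0554 without 2 birds. The cause was not tested. The values are mRNA signals of scraped mucosa; they give no protein level, enzyme activity or mitochondrial number, and probe sets cannot be ranked against each other. No detection call was used, so whether a low signal lies above background was not measured. The signal of *ATP5F1AW* cannot be read as expression of that gene, since by its name male birds lack it.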
